A study of Drosophila melanogaster with 3 samples.

Results

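Regions bound by B-H1 that were found only in replicate 2 are described here: 1530 of the 4085 merged regions (37.5%) in a chromatin immunoprecipitation sequencing (ChIP-seq) experiment on Drosophila melanogaster embryos. The regions were selected on their presence in the deposited peak lists. The thresholded peaks of the 3 biological replicates were merged wherever they overlapped by at least 1 bp on the 6 major chromosome arms (X, 4 and both arms of 2 and 3), and a region was kept when its peaks came from replicate 2 alone. The other replicate 2 regions, 1943 in number, also held a peak of replicate 1 or replicate 3 and are called shared regions below. Replicates 1 and 3 had 208 and 263 regions of their own. All 3 samples belonged to 1 group: whole embryos, for which the source label gives 8 to 24 hours, from the fly strain B-H1-GFP with an insertion targeting B-H1, which produces B-H1 fused to eGFP, immunoprecipitated with an antibody against GFP according to the sample description. The antibody field of the labels names B-H1 instead, and their age field disagrees with the source label. A whole embryo mixes all of its cell types, so a region bound in few cells and a region weakly bound in many cannot be told apart. The binding is read as that of a tagged protein. The possible control that the descriptions point to was not used here, and the sources used here do not give the read depth.

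B-H1 (BarH1) and its neighbour B-H2 encode homeodomain transcription factors of the Bar class. They are known for specifying external sensory organs and for roles in the eye, the leg and the nervous system. Homeodomain proteins commonly recognise short AT-rich sequences with a TAAT core, and in ChIP-seq their binding is read from the pile-up of fragments at a summit. A promoter is the stretch around a transcription start site (TSS), where the transcription machinery assembles, and the 5′ untranslated region (UTR) begins at that site.

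Replicate 2 stood apart from the other replicates before any of the results below: its thresholded list held 3609 peaks on the arms, against 1971 in replicate 1 and 2199 in replicate 3. Its ranked list, which holds peaks before the threshold, was not the longest, with 97966 peaks against 101546 in replicate 1 and 72939 in replicate 3. The threshold was an irreproducible discovery rate (IDR) of at most 0.01, a −log10 of at least 2, between 2 sets of values within each replicate.

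The genomic sequence of 8 regions is shown as 200 bp centred on the replicate 2 summit, plus strand, Release 6 of the genome (dm6 coordinates). B-H1 is shown because the region lies beside the gene of the tagged factor. The regions nearest to aralar1, zfh2, S and CG7668 are the 4 of highest signal outside annotated exons on arms 2L, 3L, 3R, 4 and X. PAPLA1 and Aldh stand for regions with the highest-ranked peaks in both other replicates, and Eip75B, like zfh2 and CG7668, for regions with no ranked peak in either. Capitals mark the 12 preset motifs on either strand: the DREF core TATCGA, the homeodomain motif TAATTA, a second homeodomain motif TAATTG, the Bar-class motif TAAACG, the GAGA factor motif GAGAGA, the E box CACGTG, another E box CAGCTG, the M1BP motif GTCACAC, the Zelda motif CAGGTA, the TATA box TATAAA, the initiator motif TCAGTT and the AP-1 motif TGACTC. Both homeodomain motifs share their first 5 letters, so they are not independent.
B-H1, chrX:17397191-17397390: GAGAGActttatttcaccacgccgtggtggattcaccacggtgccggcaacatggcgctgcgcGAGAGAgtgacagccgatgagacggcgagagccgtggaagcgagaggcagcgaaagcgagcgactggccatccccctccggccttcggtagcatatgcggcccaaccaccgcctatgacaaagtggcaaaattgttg
aralar1, chr3R:30450424-30450623: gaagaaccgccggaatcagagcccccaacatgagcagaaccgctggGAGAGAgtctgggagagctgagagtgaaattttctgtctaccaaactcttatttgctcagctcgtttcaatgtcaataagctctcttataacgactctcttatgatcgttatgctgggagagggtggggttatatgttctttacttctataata
zfh2, chr4:497812-498011: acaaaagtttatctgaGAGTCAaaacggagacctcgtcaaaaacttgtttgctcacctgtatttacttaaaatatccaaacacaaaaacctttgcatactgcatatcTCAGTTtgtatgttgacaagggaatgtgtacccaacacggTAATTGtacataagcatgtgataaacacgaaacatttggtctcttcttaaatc
S, chr2L:1072284-1072483: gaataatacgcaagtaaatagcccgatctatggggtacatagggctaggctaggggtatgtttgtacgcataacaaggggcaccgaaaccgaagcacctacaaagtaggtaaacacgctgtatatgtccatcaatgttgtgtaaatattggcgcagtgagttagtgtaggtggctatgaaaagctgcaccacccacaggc
CG7668, chr3L:20002493-20002692: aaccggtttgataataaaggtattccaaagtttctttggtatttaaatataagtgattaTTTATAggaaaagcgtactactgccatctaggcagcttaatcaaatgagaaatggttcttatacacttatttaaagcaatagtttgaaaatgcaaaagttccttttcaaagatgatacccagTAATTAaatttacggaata
PAPLA1, chr2L:8156829-8157028: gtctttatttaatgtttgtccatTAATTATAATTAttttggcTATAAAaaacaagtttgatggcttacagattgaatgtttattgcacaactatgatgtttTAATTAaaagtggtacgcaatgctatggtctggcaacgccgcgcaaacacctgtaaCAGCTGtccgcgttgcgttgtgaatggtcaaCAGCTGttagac
Aldh, chr2L:9388134-9388333: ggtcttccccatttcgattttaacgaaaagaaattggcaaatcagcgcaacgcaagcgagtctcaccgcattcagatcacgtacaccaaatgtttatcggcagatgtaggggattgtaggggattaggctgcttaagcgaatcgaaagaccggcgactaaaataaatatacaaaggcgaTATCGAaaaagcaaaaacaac
Eip75B, chr3L:18029666-18029865: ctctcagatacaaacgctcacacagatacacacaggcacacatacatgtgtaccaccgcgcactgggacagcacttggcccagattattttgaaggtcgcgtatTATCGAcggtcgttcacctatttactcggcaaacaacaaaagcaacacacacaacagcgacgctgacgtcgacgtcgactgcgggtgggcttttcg

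These 8 windows ranged from 29% GC at CG7668 to 60.5% GC at B-H1. The B-H1 window held GAGAGA in 2 places and none of the homeodomain or Bar-class motifs. PAPLA1, which encodes a phosphatidic acid phospholipase, had 3 copies of TAATTA and 2 of CAGCTG, and the window at S held none of the 12 motifs. For scale, TAATTA occurred in 12.4% and GAGAGA in 6.94% of all 200 bp windows tiled along the arms. A match is a string of letters and does not show that a factor binds there.

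Regions found only in replicate 2 sat in the lower part of that replicate's own list. The median signal, on the scale of the authors' peak caller, was 54.5 (lowest 5.74, highest 260) in regions found only in replicate 2 and 93.0 (25.2 to 1166) in shared regions. Within the thresholded list of replicate 2 this put the median region found only there at percentile 29.6, and the median shared region at percentile 70.8. None of the 100 strongest peaks of replicate 2 was found only there, against 9 of the 500 strongest and 71 of the 1000 strongest. The signal took part in choosing the regions through the threshold, so these values describe the selection. The 2 values compared within the replicate by the IDR procedure had a median absolute log2 ratio of 0.29 in regions found only in replicate 2 and 0.28 in shared regions. Both classes had passed the IDR threshold on these values, so this closeness also describes the selection. No such ratio was taken for replicate 2 peaks outside the thresholded list.

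**Figure D1:**
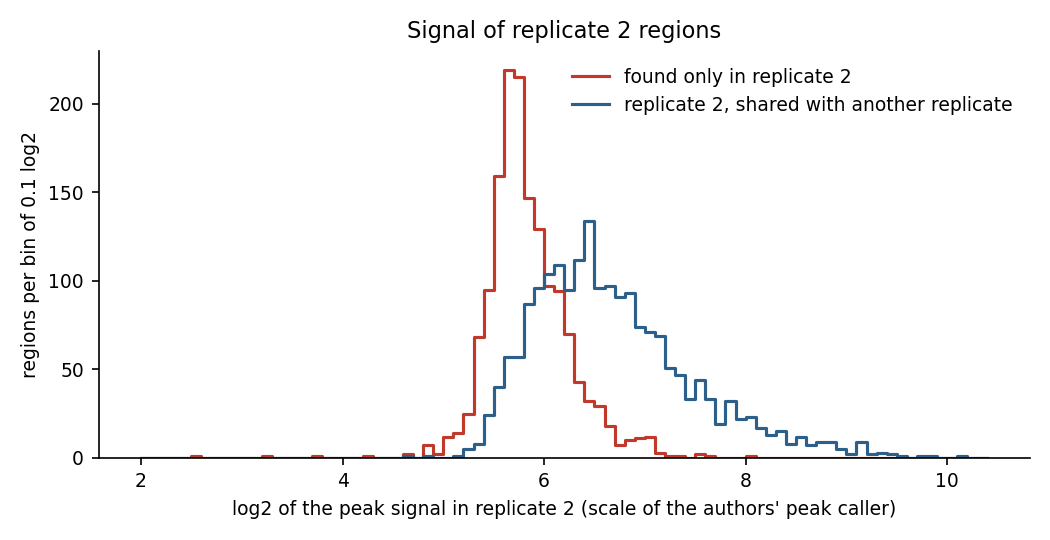
Number of replicate 2 regions (vertical axis) by log2 of peak signal (horizontal axis, bins of 0.1), for regions found only in replicate 2 (red) and shared regions (blue). The red curve lies at lower signal, with a median signal of 54.5 against 93.0, and ends at a signal of 260, whereas the blue curve reaches 1166.

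The 20 regions of highest signal included genes of very different roles, and most of them lay in introns. The strongest, chr2R:18621459-18621635, had a signal of 260 in replicate 2 and lay 1 bp upstream of the nearest TSS of CG5335. At this region the best peak of replicate 1 was at percentile 17.4 of its ranked list and that of replicate 3 at percentile 94.1. The region at aralar1, a mitochondrial aspartate-glutamate carrier, followed with a signal of 199 at 118 bp upstream of a TSS, where the ranked peaks of replicates 1 and 3 stood at percentiles 68.7 and 96.1. The region near zfh2, which encodes a zinc finger homeodomain factor, had a signal of 193 at −3898 bp from the nearest TSS (negative is upstream) and no ranked peak in either other replicate. At S (Star, a membrane protein of epidermal growth factor signalling) the signal was 190, and both other replicates had peaks at percentiles 97.9 and 97.0. Of these 20 regions, 13 had their summit in an intron, 12 lay within 1 kb of a TSS of a protein-coding gene, and 5 within 1 kb downstream of any TSS. The remaining genes of this set were CG7668, CG5541, CG31883, Ndfip, CG31751, MESR3, RpL30, smash, shot, CG9992, Eip75B, CG5973, Inx2, Ctps, noc and Mef2, with signals from 129 to 158. They include the gap junction gene Inx2, the cytoskeletal linker shot, the ecdysone-induced nuclear receptor Eip75B and the muscle regulator Mef2.

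The width of the merged region set these strongest regions apart from the rest of the class. Of the 20, 12 were narrower than 300 bp, with a median width of 155 bp, whereas 7 of the other 1510 regions found only in replicate 2 were narrower and 95.3% of those were exactly 300 bp wide. Narrow regions were also common among the strongest shared ones, at 18 of 20, with a median width of 262.5 bp. A shared region spans the joined peaks of different replicates, so its width is not directly comparable.

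The gene of the tagged factor carried a region found only in replicate 2. It spanned chrX:17397141-17397440, in intergenic sequence with its summit 187 bp upstream of the TSS of B-H1 (FBgn0011758, chrX:17397478-17403278). Its signal was 89.1 in replicate 2, at percentile 98.8 of the ranked list. Replicate 3 had a ranked peak there with a signal of 19.9, at percentile 85.9, and replicate 1 had none. Shared regions lay no nearer than 93926 bp to a TSS of B-H1, and 1 further region within the gene or 5 kb around it, at chrX:17402060-17402359, was found only in replicate 3. At B-H2 (FBgn0004854, chrX:17314581-17324175) the nearest region found only in replicate 2 lay 15444 bp from a TSS, and a shared region lay at 14934 bp.

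The next question was whether replicates 1 and 3 held weaker peaks at these regions. Replicate 1 had a ranked peak at 851 of the 1530 regions (55.6%) and replicate 3 at 1048 (68.5%). Both had one at 712, and neither had one at 343 (22.4%). The background was measured with the replicate 2 ranked peaks that did not enter its thresholded list, whose median width was also 300 bp: 44.9% of those 94357 peaks overlapped a ranked peak of replicate 1 and 38.7% one of replicate 3. The ranked peaks covered 21.9% of the arms in replicate 1 and 15.7% in replicate 3. The shares at regions found only in replicate 2 were thus 55.6% beside 44.9% in replicate 1 and 68.5% beside 38.7% in replicate 3. Because the rule used the same lists past their threshold, these shares were not tested.

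Where a ranked peak was present it was usually a high one. Its median percentile within the ranked list was 91.9 in replicate 1 and 90.8 in replicate 3, with a median signal of 21.8 in replicate 1 and 22.8 in replicate 3. It stood in the upper 10% of its list at 456 regions (29.8%) in replicate 1 and at 544 (35.6%) in replicate 3. No such share was taken for the replicate 2 peaks outside the thresholded list. In shared regions the median percentile was 99.0 in replicate 1 and 98.6 in replicate 3. The summit of a ranked peak lay within 100 bp of the replicate 2 summit at 700 regions in replicate 1 and 888 in replicate 3. The converse count, of ranked peaks of replicate 2 at regions of the other replicates, was 170 of 208 (81.7%) at regions found only in replicate 1 and 243 of 263 (92.4%) at regions found only in replicate 3. The ranked peaks of replicate 2 covered 21.0% of the arms. Replicate 3 had a ranked peak at 187 of 208 (89.9%) regions found only in replicate 1. Replicate 1 had one at 208 of 263 (79.1%) regions found only in replicate 3.

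**Figure D2:**
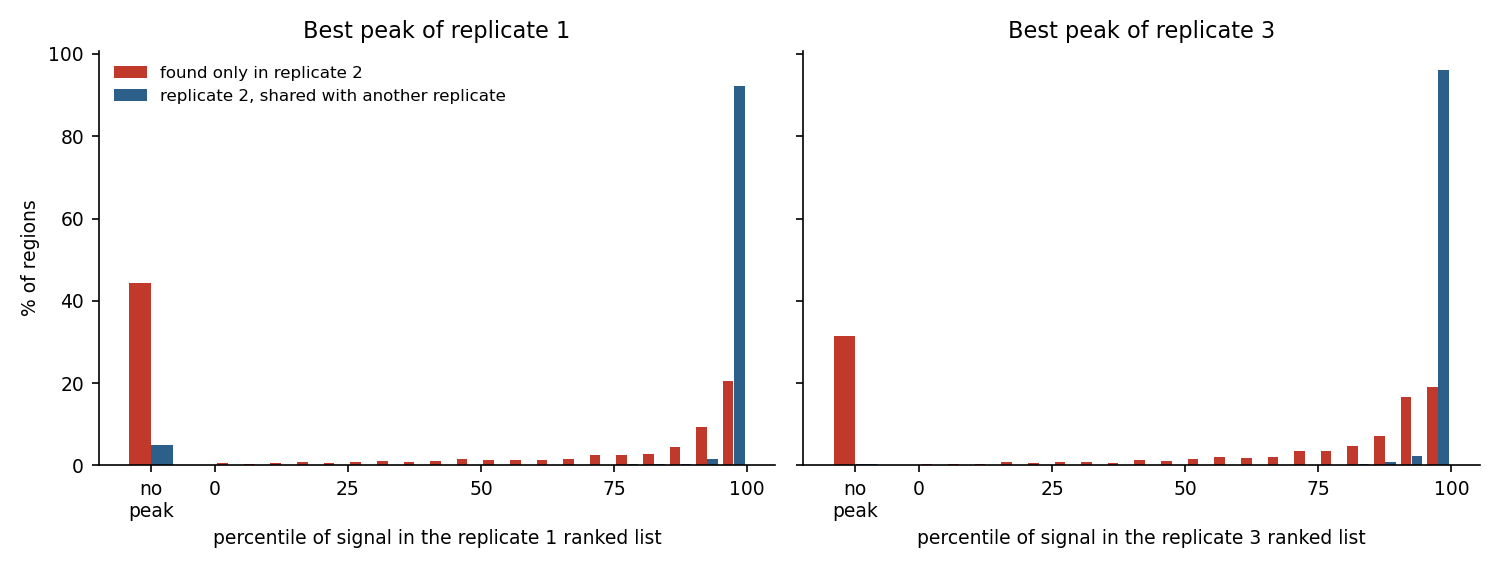
Share of replicate 2 regions (vertical axis, %) by the percentile of signal of the best overlapping peak in the ranked list of replicate 1 (left) and replicate 3 (right), in bins of 5, with regions that had no peak at the left edge of each panel. Regions found only in replicate 2 are red and shared regions blue. In red, no peak was found for 679 of 1530 regions in replicate 1 and 482 in replicate 3, and the rest pile up above percentile 75.

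At the threshold itself the classes touched. The lowest −log10 IDR of a region found only in replicate 2 was 2.00035 in that replicate, just inside the threshold, and the median was 2.56. Just outside, the highest values at these regions were 1.997 in replicate 1 and 1.9999 in replicate 3. An IDR of at most 0.05 was reached in replicate 1 or 3 at 222 regions and in both at 19. Over the regions with a ranked peak, the medians of −log10 IDR were 0.127 in replicate 1 and 0.233 in replicate 3, far below the 2 of the threshold. The 5 regions with the highest smaller percentile in the other ranked lists lay near PAPLA1, CG15071, Aldh, Mst87F and Paip2. They were chosen by percentile, and not all were near the IDR threshold in both replicates. In replicates 1 and 3, −log10 IDR was 1.95 and 0.0835 at PAPLA1 and 0.154 and 1.93 at CG15071. It was 1.54 and 1.97 at Mst87F and 1.93 and 1.72 at Paip2. At Aldh, an aldehyde dehydrogenase gene, the percentile was 97.9 in each of replicates 2 and 1 and 97.4 in replicate 3, and −log10 IDR was 1.95 in replicate 1 and 1.80 in replicate 3. At Paip2, whose product binds the poly(A)-binding protein, the percentile was 97.5 in replicate 2 and 97.8 in replicate 1. The 5 strongest regions with no ranked peak in either other replicate were near zfh2, CG7668, CG9992, Eip75B and CG31729, with signals in replicate 2 from 129 to 193.

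Lists that the authors made from all 3 replicates held some of these regions. Their conservative list, with 3078 peaks on the arms, overlapped 495 of the regions found only in replicate 2 (32.4%) and 1890 of the shared regions (97.3%). The other 3 lists, with 2942, 3463 and 2673 peaks, overlapped 209 (13.7%), 611 (39.9%) and 334 (21.8%) of them. At least 1 of the 4 lists overlapped 781 (51.0%). Those lists were derived from the same alignments and are no separate evidence.

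Regions found only in replicate 2 were shifted to the transcribed side of promoters. Their summits lay within 1 kb downstream of a TSS in 433 of 1530 regions (28.3%, exact 95% interval 26.1 to 30.6), against 259 of 1943 shared regions (13.3%, 11.8 to 14.9), an odds ratio of 2.57 (Fisher's exact test, two-sided, adjusted exact p = 6.8e-27 over the 8 location classes). Upstream, within 1 kb, lay 489 (32.0%) of the regions found only in replicate 2 and 892 (45.9%) of the shared regions (adjusted exact p = 1.7e-16). The sum of both sides differed little, at 60.3% against 59.2% (adjusted exact p = 0.554). Location took no part in the rule. The regions of 1 library are not replicates, so these p-values cover the spread of regions within these lists only.

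In 100 bp steps the contrast was sharpest beside the TSS. The bin from the TSS to 100 bp downstream held 211 (13.8%) of the regions found only in replicate 2, their fullest bin, against 71 (3.65%) of the shared regions. Shared regions were most frequent 100 to 200 bp upstream, with 307 (15.8%), where 112 (7.32%) of the regions found only in replicate 2 lay. The 100 bp directly upstream held 11.7% of the regions found only in replicate 2 and 11.2% of the shared regions. Among downstream summits the median distance from the TSS was 103 bp in regions found only in replicate 2 and 418 bp in shared regions.

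**Figure D3:**
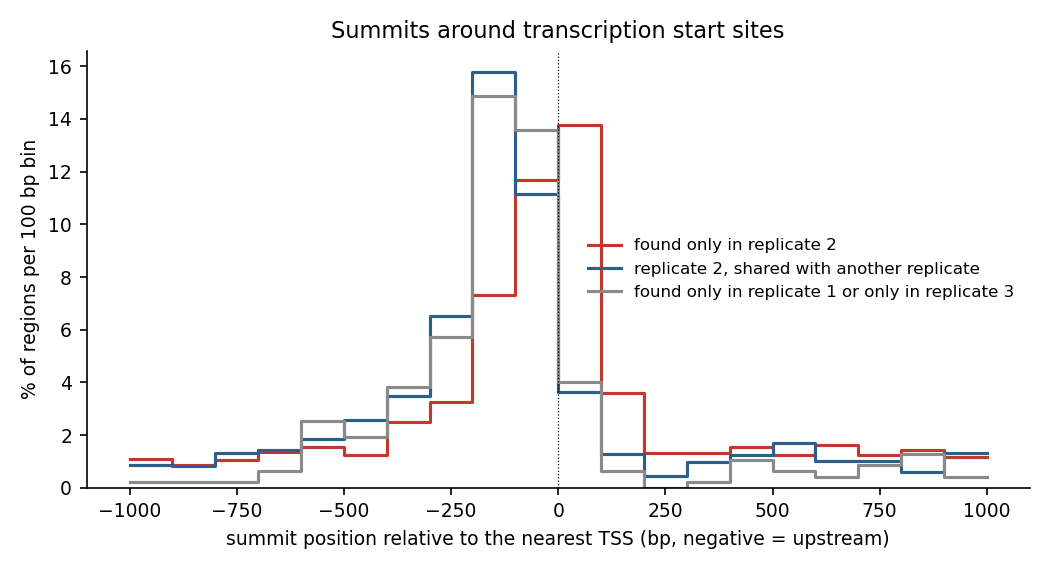
Share of regions (vertical axis, % per 100 bp bin) by the position of the summit relative to the nearest TSS (horizontal axis, bp, negative upstream), for regions found only in replicate 2 (red), shared replicate 2 regions (blue) and regions found only in replicate 1 or only in replicate 3 (grey). Red is highest in the first 100 bp downstream, at 13.8%, where blue is at 3.65%, and blue is highest 100 to 200 bp upstream, at 15.8%.

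Regions that a single other replicate held did not share this shift. The downstream share of 28.3% in regions found only in replicate 2 compared with 45 of 471 (9.55%) in regions found only in replicate 1 or only in replicate 3 (Fisher's exact test, two-sided, adjusted exact p = 2.2e-18). It was 19 of 208 (9.13%) in replicate 1 and 26 of 263 (9.89%) in replicate 3. Intergenic summits were 26.3% of the regions found only in replicate 2 and 49.0% of those found in a single other replicate (adjusted exact p = 1.2e-18). Within 1 kb of a TSS on either side lay 60.3% against 53.3% (adjusted exact p = 0.01001), and that call was lost without replicate 1, at 59.2% against 60.4%, and without replicate 3, at 58.2% against 56.6%. The shared regions of replicates 1 and 3, by those replicates' own summits, had downstream shares of 12.8% and 13.2%, close to the 13.3% of shared regions by replicate 2 summits.

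In 5′ UTRs the regions found only in replicate 2 had a higher share. These held 283 summits of regions found only in replicate 2 (18.5%) and 129 of shared regions (6.64%), an odds ratio of 3.19 (Fisher's exact test, adjusted exact p = 3.4e-26). Of the 433 downstream summits, 254 were in a 5′ UTR, 119 in an intron and 25 in coding sequence. Coding sequence held 36 (2.35%) against 6 (0.309%) of all summits (adjusted exact p = 5.7e-08). That call was lost with the replicate 2 list cut to 1971 peaks, at 0.480% against 0.322% (adjusted exact p = 0.644), and in the upper 50% of signal the direction turned, at 0.295% against 0.341%. Intergenic sequence held 403 (26.3%) against 702 (36.1%) (adjusted exact p = 1.4e-09). Introns held 47.9% against 52.7% (adjusted exact p = 0.0075), a difference of -4.74 percentage points that was -2.36 without replicate 1 and -2.51 without replicate 3, neither past the threshold. Beside regions found only in replicate 1 or only in replicate 3 the direction was opposite. There introns held 47.9% against 39.7% (Fisher's exact test, adjusted exact p = 0.0029). Summits in 3′ UTRs were few, 31 (2.03%) against 22 (1.13%), with an adjusted exact p of 0.0418 that was not kept without replicate 3 (adjusted exact p = 0.110).

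Signal was lower in this class, so the downstream share was also taken within 4 equal bins of the replicate 2 list by signal, which were not tested one by one. In the bin of lowest signal it was 29.0% of 631 regions found only in replicate 2 and 12.8% of 141 shared regions. The next bin had 30.2% of 560 against 10.4% of 337, and the one above it 24.7% of 287 against 13.5% of 614. In the bin of highest signal, with 52 regions found only in replicate 2, it was 19.2% against 14.5% of 851 shared regions. Taking the upper 50% of the list as a whole, the difference was 9.83 percentage points and past the threshold.

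**Figure D4:**
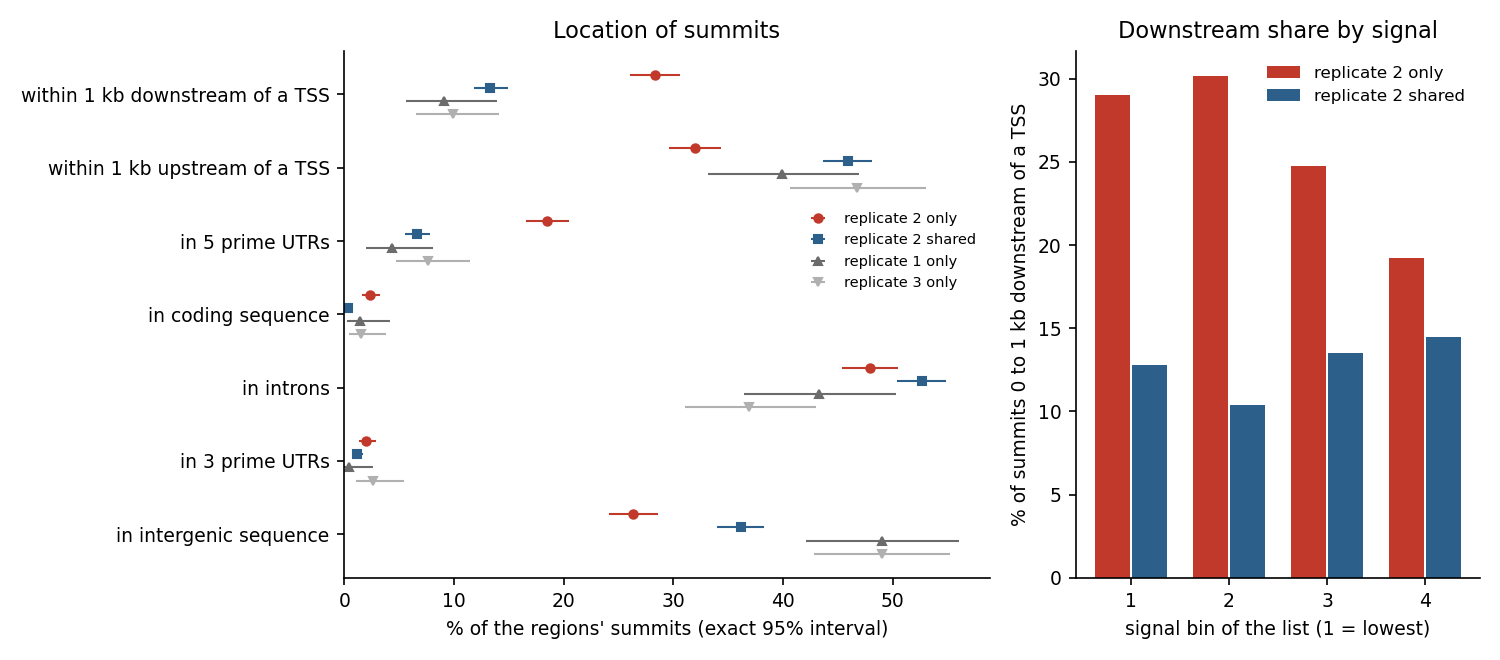
Left, share of summits in each location (horizontal axis, %, with exact 95% binomial intervals) for regions found only in replicate 2 (red circles), shared replicate 2 regions (blue squares) and regions found only in replicate 1 (dark grey triangles) or only in replicate 3 (light grey triangles). Right, share of summits within 1 kb downstream of a TSS (vertical axis, %) in 4 equal bins of the replicate 2 list by signal, with red bars above blue bars in all 4 bins, from 29.0% against 12.8% in the lowest to 19.2% against 14.5% in the highest.

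The downstream regions had the lowest shares of ranked peaks in the other replicates. Replicate 1 had one at 40.6% of the downstream regions found only in replicate 2, at 55.4% of the upstream ones and at 66.4% of those farther than 1 kb from a TSS. Replicate 3 had one at 59.8%, 70.3% and 73.2% of the same 3 sets, and neither replicate had one at 31.9%, 21.3% and 16.6%. These shares use the lists that chose the regions and were not tested. Of the 433 downstream regions, 140 (32.3%) had TSSs on both strands within 1 kb, and 63 (14.5%) had a region of another class within 1 kb of their summit.

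Sequence at the summits was richer in G and C. The median GC content of the 200 bp window was 39.5% in regions found only in replicate 2 and 34.0% in shared regions, with 33.5% in regions found only in replicate 1 and 36.5% in those found only in replicate 3. At least 40% GC was reached by 762 (49.8%) of the regions found only in replicate 2 and 369 (18.99%) of the shared regions (Fisher's exact test, two-sided, p = 6.7e-83). Among downstream summits the shares were 71.8% against 28.2%, among upstream ones 45.0% against 17.4%, and farther than 1 kb from a TSS 38.0% against 17.8%, the highest adjusted p over these 3 sets and all regions being 3.3e-17. The split by side was chosen after seeing the data.

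GC content and location moved together, and both differences were measured within GC classes, also chosen after seeing the data. In windows of at least 40% GC the downstream share was 40.8% in regions found only in replicate 2 and 19.8% in shared regions (adjusted exact p = 7.0e-12). In windows under 40% GC it was 15.9% against 11.8% (adjusted exact p = 0.0150). The 5′ UTR share was 30.8% against 13.0% in the GC-rich windows (adjusted exact p = 7.3e-11) and 6.25% against 5.15% in the others (adjusted exact p = 0.310).

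Among the 12 preset motifs, 5 differed in frequency at an adjusted p below 0.05. The AT-rich ones were less frequent in regions found only in replicate 2: TATAAA was in 28.4% of their windows against 39.0% of shared windows (Fisher's exact test, adjusted exact p = 8.3e-10), TAATTA in 12.6% against 18.01% (adjusted exact p = 8.6e-05) and TAATTG in 15.03% against 19.2% (adjusted exact p = 0.0054). GAGAGA, the GAGA factor motif, was in 14.3% against 11.0% (adjusted exact p = 0.011) and CAGCTG in 10.5% against 7.87% (adjusted exact p = 0.021). The CAGCTG call was lost without replicate 1 (adjusted exact p = 0.0678). Set beside all windows tiled along the arms, the homeodomain motif TAATTA at 12.6% was near its background of 12.4%, and TAATTG at 15.03% was below its 17.6%. The other called motifs were above theirs: TATAAA at 28.4% above 21.6%, GAGAGA at 14.3% above 6.94% and CAGCTG at 10.5% above 8.35%. The motifs of the Bar class (TAAACG, 8.95% against 8.34%), DREF (TATCGA, 10.5% against 10.4%) and the initiator (TCAGTT, 14.9% against 13.0%) did not pass the threshold. Within windows of at least 40% GC 0 of 12 motifs passed Fisher's exact test after adjustment and 1, GAGAGA at 19.03% against 12.5%, had an unadjusted p under 0.05. Within windows under 40% GC 0 of 12 passed and 0 had an unadjusted p under 0.05. TAATTA was then in 5.77% against 6.78% of GC-rich windows and in 19.4% against 20.6% of the others. Each GC class holds fewer windows than the whole, and whether GC content accounts for the difference over all windows was not tested.

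Along the chromosomes, X held fewer of these regions. It carried 216 (14.1%) of the regions found only in replicate 2 and 394 (20.3%) of the shared regions (Fisher's exact test, two-sided, adjusted exact p = 1.4e-05 over the 6 arms), with 17.6% of the arm sequence. Arm 2R carried 331 (21.6%) against 340 (17.5%) (adjusted exact p = 0.0073), and this was not called with the replicate 2 list cut to 1971 peaks (adjusted exact p = 0.715). The other 4 arms did not pass the threshold, but under the same shorter list arm 2L did, with 23.5% against 17.6% (adjusted exact p = 0.0219).

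Genes were assigned when a summit lay within 1 kb of one of their TSSs. Of 13945 protein-coding genes, 1041 (7.47%) had a region found only in replicate 2 and 1424 (10.2%) a shared region, and 871 of the 1041 had no shared region. Mob2 was the nearest gene of the largest number of regions found only in replicate 2, with 6. Gene lists are described by counts beside this background, without a test, because lists and regions were chosen with earlier results of these data known.

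Genes of protein synthesis were led by those of the cytosolic ribosome. Of 92 cytosolic ribosomal protein genes, 28 (30.4%) had a region found only in replicate 2, all 28 at separate regions, against the 7.47% of all genes. A shared region was present at 32 (34.8%), so the list stood above the background of both classes. At RpL30, a protein of the large subunit, the summit lay 21 bp downstream of the TSS in the 5′ UTR, with a signal of 136 in replicate 2 and ranked peaks of signal 31.6 in replicate 1 and 30.5 in replicate 3. RpL24 had a signal of 127 and RpL4 one of 112, and both had a ranked peak in replicate 3 and none in replicate 1. At RpL3 the signal was 121 and neither other replicate had a ranked peak. In all, 14 of the 28 summits were downstream of the TSS, beside 407 of the 1041 protein-coding genes with a region found only in replicate 2. Of the 28 regions, 6 had no ranked peak elsewhere, near the 22.4% of all regions found only in replicate 2.

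The other growth and housekeeping lists lay on both sides of the 7.47% of all genes. Translation factors had 4 of 54 (7.41%), among them eEF2, an elongation factor gene, with its summit 19 bp into the transcript. Mitochondrial ribosomal proteins had 1 of 73 (1.37%), oxidative phosphorylation 3 of 86 (3.49%) and the proteasome 1 of 48 (2.08%). Aminoacyl-tRNA synthetases had 3 of 33 (9.09%), DNA replication and cell cycle genes 2 of 32 (6.25%) and heat shock proteins 1 of 25. Spliceosome genes had 4 of 29 (13.8%), including SmD3 and snRNP-U1-C, a share above the background by few genes. The glycolysis list had 1 of 12, Ald1, although 7 of its genes had a shared region. Chromatin factor lists were small and also above it: 3 of 16 insulator and promoter factors (BEAF-32, Trl and pita) and 3 of 25 Polycomb and trithorax genes, the Polycomb repressors Psc, ph-d and ph-p, had a region found only in replicate 2. Shared regions stood at 7 of 16 and 4 of 25 genes of these lists, also above the 10.2% of all genes. In each list only 1 of the 3 genes had no shared region. At ph-p the summit was 104 bp and at ph-d 121 bp downstream of a TSS; these neighbouring genes are closely related copies, so their reads may be hard to assign.

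Among the developmental lists, those of axon guidance, the Notch pathway, signalling and sensory organs had a share above the background. Trachea (4 of 18), glia (3 of 16) and muscle (3 of 26) were above it by few genes, and no list was tested. Other homeobox genes, at 3 of 55, were near the background, and the small synapse list had 0 of 27. Shared regions were also above their own 10.2% of all genes in signalling (13.95%), sensory organs (12%), trachea (16.7%), glia (18.75%) and muscle (19.2%). The share of regions found only in replicate 2 was equal to this in glia, at 18.75%, and lower in muscle, at 11.5%. Axon guidance genes had 8 of 28 (28.6%) with a region found only in replicate 2 and 3 (10.7%) with a shared region. Of the 8 summits, 6 lay downstream, beside 407 of the 1041 protein-coding genes with a region found only in replicate 2. Sema1a, which encodes a transmembrane semaphorin, had the highest signal of the axon guidance genes, 96.3, at 103 bp upstream, with no ranked peak in the other replicates. The cell adhesion gene Fas3 had a signal of 62.4 at 86 bp downstream, with ranked peaks at percentile 79.0 in replicate 1 and 91.0 in replicate 3. At comm, which controls the Robo receptor, the summit lay 5 bp downstream of the TSS with a signal of 54.3, and trn had one of 75.8.

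Notch pathway genes had 6 of 24, against 2 of 24 with a shared region. They were the receptor gene N, the protease gene kuz that cleaves the receptor, the coactivator mam and the target E(spl)mbeta-HLH, with signals between 52.5 and 59.7, and 2 others of lower signal. At E(spl)mbeta-HLH the summit lay 5 bp downstream of the TSS, with ranked peaks at percentiles 81.4 in replicate 1 and 66.9 in replicate 3. Signalling ligands, receptors and targets had 9 of 43 (20.9%), among them the Hedgehog receptor ptc, the fibroblast growth factor genes pyr and bnl and the Dpp receptor tkv, whose signals ranged from 52.8 to 64.7. Proneural and sensory organ genes had 5 of 25, with ush, a cofactor of GATA factors, highest at 88.4, followed by the bHLH gene da at 59.2, the HLH repressor emc at 53.3 and insc at 46.2.

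Of the homeobox genes other than B-H1 and B-H2, 3 of 55 (5.45%) had a region found only in replicate 2, near the 7.47% of all genes. They were bcd with a signal of 64.6, Lim1 with 51.6 and caup with 49.8. At bcd, the anterior determinant, replicate 1 had a ranked peak at percentile 97.1 and replicate 3 at percentile 98.4. Tracheal genes had 4 of 18, glial genes 3 of 16 (loco, Gli and pnt) and muscle genes 3 of 26 (Mef2, rst and sns). Some of these genes stand in more than 1 list, as bnl, pnt and tkv do. The list of synapse and neuronal excitability had 0 of 27. Of the late-acting lists, cuticle proteins had 0 of 121 and chemoreceptors 2 of 179 (Gr32a and Ir60e).

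**Figure D5:**
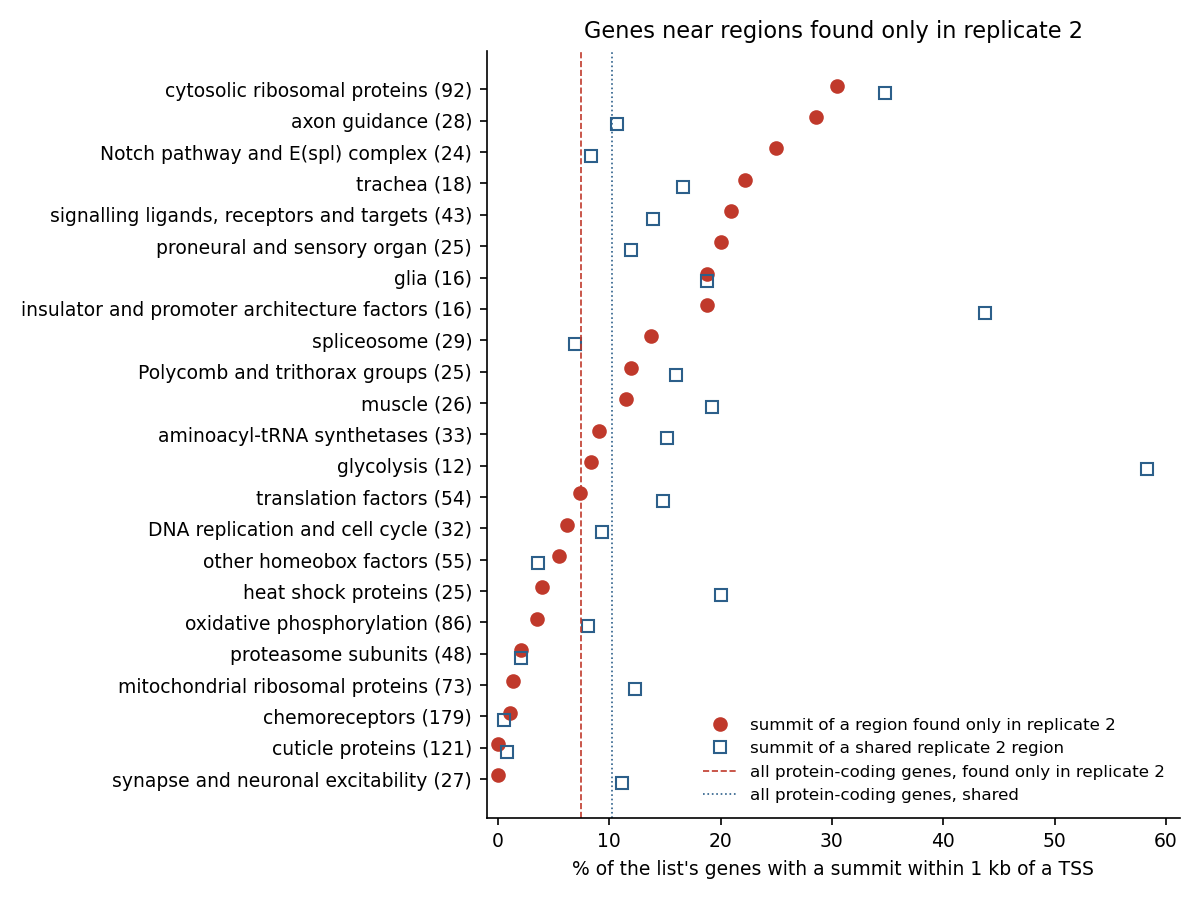
Share of the genes of each list (horizontal axis, %; list size in brackets) that had a summit at most 1 kb from a TSS, for regions found only in replicate 2 (red circles) and shared replicate 2 regions (blue squares). Dashed red and dotted blue lines mark the shares of all protein-coding genes, 7.47% and 10.2%. Cytosolic ribosomal proteins at 30.4% and axon guidance at 28.6% lie farthest to the right in red.

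Among genes that are not protein-coding, 185 of 3951 (4.68%, pseudogenes left out) had a region found only in replicate 2. For tRNA genes it was 30 of 290 (10.3%), at 18 separate regions, against 11 (3.79%) with a shared region. The highest signal was 103 at tRNA:Val-CAC-2-5. Neither other replicate had a ranked peak at 17 of the 30. Counted by region over the whole class found only in replicate 2, it was 343 of 1530 (22.4%). Several tRNA genes share a region, so the counts by gene and by region are not directly comparable. tRNA genes are short, repeated and near-identical, so reads can be hard to assign to 1 copy, and some lie beside other genes: 1 region stood for both tRNA:Asp-GTC-1-4 and tRNA:Asp-GTC-1-5 and for Sema1a. For snoRNA and snRNA genes it was 29 of 301 (9.63%) at 20 regions, and the regions at RpL30 and RpL3 stood within 1 kb of snoRNA:Me28S-A2113 and of snoRNA:Me18S-C1096. For microRNA genes it was 9 of 260 (3.46%), among them mir-14 and mir-ban.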

How the data were processed

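Peak lists of 3 biological replicates were analysed. The deposited signal of a peak is the value that the authors' peak caller gave it, on a scale not stated; it served here to order peaks inside 1 list and was never compared between lists as a test. The ranked lists give, as deposited, the −log10 of the global IDR and 2 within-replicate values. Per the labels, coordinates are on dm6, and per the deposited descriptions each replicate's lists come from its own alignments and 1 file common to the replicates. For the aligner and the peak caller, no name is given in the sources used here. Read depth is unknown, so no counting interval for reads is given and the number of peaks may vary with depth. In the ranked lists of the whole series, 32 columns of per-sample values carry no replicate name and were left unused.

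Regions were merged as described in the report. A region's position was the summit of its strongest replicate 2 peak, or of its only replicate. The annotation was that of Ensembl release 115, which has 23584 distinct TSSs on the arms and 13945 protein-coding genes; a summit was assigned to coding sequence, 5′ UTR, 3′ UTR, noncoding exon, intron or intergenic sequence in that order of priority. Shares were compared with Fisher's exact test, two-sided, with Benjamini-Hochberg adjustment over the 8 location classes, the 12 motifs or the 6 arms and a threshold of 0.05. Percentiles run from 0 to 100 within a list. Named genes were B-H1 and B-H2, the nearest protein-coding gene of the 20 strongest regions, of the 5 with the highest-ranked peaks in both other replicates and of the 5 strongest with no ranked peak, and up to 4 genes of each of 27 lists by signal; Mob2 was named after its count was seen. In the lists 7 symbols were matched through a table of synonyms. The regions, motifs and gene lists were chosen with earlier results of these data known. Python 3.11.15, numpy 2.4.6 and scipy 1.17.1 were used, and the functions were tested on simulated data. Alternatives were other joining rules, windows, list lengths, parts of the list by signal and replicates left out, and GC classes that were added after seeing the data.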

Additional observations from a re-analysis of the deposited data

How the results depend on the processing

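Of 243 alternative values, 162 kept their direction and their side of the threshold, and the cause of the others was not tested unless the setting shows it. The higher downstream share and the lower upstream and intergenic shares of regions found only in replicate 2 were kept under all alternatives run for them, the downstream difference ranging from 4.07 percentage points in windows under 40% GC to 21.0 in windows of at least 40% GC. Leaving out a replicate gave 1744 to 1890 regions found only in replicate 2, differences in introns of -2.51 to -2.36 points, in 3′ UTRs of 0.715 (without replicate 3, not past the threshold) to 0.966 points, and 8.34% to 8.88% of genes. With the replicate 2 list cut to 1971 peaks 417 regions were left, and 339 in its upper 50%, both because fewer peaks enter. Under the shorter list the difference was -3.81 points in introns and 0.157 in coding sequence, neither past the threshold. In the upper 50% it was -1.39 in introns, -0.0463 in coding sequence and 0.995 in 3′ UTRs. With summits joined within 100 bp the 3′ UTR difference was 0.819. In windows under 40% GC it was 1.10 in 5′ UTRs and 2.30 in introns, and in windows of at least 40% GC 0.499 in 3′ UTRs.

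The share within 1 kb on either side had no stable direction: its difference of 1.02 points became -1.74 under the shorter list, 9.62 (past the threshold) in the lower 50% and -3.73 in the upper 50% of signal, 7.90 (past it) in windows of at least 40% GC, -7.73 (past it, the other way) in windows under 40% GC, -1.06 without replicate 1 and -3.26 without replicate 3. Against regions found in a single other replicate it was 6.97, but -1.22 without replicate 1 and 1.63 without replicate 3.

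Of 12 motifs, 6 were called in 100 bp windows, where GTCACAC passed the threshold (2.16% against 0.669%, adjusted exact p = 0.00036), 1 in 400 bp windows, 1 under the shorter list, 5 at summits within 1 kb of a TSS, 0 at summits over 1 kb from one, 0 within each GC class, and 4 to 5 with a replicate left out. Motif differences changed sign as follows, none of them past the threshold. In 400 bp windows TATCGA was at -0.745 points, CAGCTG at -2.05 and CAGGTA at -1.11. TATCGA was at -0.295 without replicate 3 and 0.434 without replicate 1, and CACGTG at -0.0759 without replicate 1 and 0.412 without replicate 3. Under the shorter list CACGTG was at -0.161. At summits within 1 kb of a TSS TATCGA was at -0.906 and CACGTG at -0.611. Over 1 kb from a TSS TAAACG was at -0.224, GAGAGA at -0.0498, GTCACAC at -0.287, CAGGTA at -0.812 and TCAGTT at -0.276. In windows of at least 40% GC TATCGA was at -2.20, CACGTG at -1.32, GTCACAC at -0.399, CAGGTA at -1.85 and TGACTC at -0.738, and in windows under 40% GC TAAACG was at -0.0404 and GAGAGA at -1.04.

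A ranked peak with its summit within 100 bp was found at 45.8% of regions in replicate 1 and 58.0% in replicate 3, and one in the upper 10% of its list at 29.8% in replicate 1 and 35.6% in replicate 3. Genes near a region were 5.51% with a 500 bp window, 8.76% by the nearest TSS and 20.3% by the gene with 5 kb around it. No paired analysis was possible because all samples belong to 1 group. The number of reads behind each list is unknown, so depth and the number of regions found only in replicate 2 cannot be told apart.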
